A study of Mus musculus with 7 samples.

Results

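The genes described here are 9 targets of the contractile and matrix programmes that respond to serum response factor (SRF), to TGF-β and to the co-activator YAP. They are *Acta2*, *Tagln*, *Cnn1*, *Myl9*, *Tpm1* and *Tpm2*, which encode parts of the contractile cytoskeleton, and *Thbs1*, *Ccn1* and *Ccn2*, which encode proteins secreted into the matrix. They were chosen by symbol and matched to Ensembl identifiers, and all 9 were found among the 29267 genes of each expression table.

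RNA was sequenced from 7 libraries, 1 for each group, so that no spread between cultures could be estimated. Mouse embryonic fibroblasts (MEFs) of the OG2 line, which carry the Oct4GFP transgene (*egfp* under the *Oct4* promoter), were infected with retroviruses for *Oct4*, *Sox2*, *Klf4* and *c-Myc* and then kept in mES or 5C medium. Sorting on GFP gave a positive and a negative fraction from each medium (mES-Oct4GFP+ with mES-Oct4GFP-, and 5C-Oct4GFP+ with 5C-Oct4GFP-), all labelled as passage 0. The mES medium contains fetal bovine serum, LIF and vitamin C, whereas 5C medium is free of serum and contains N2 supplement, bFGF, β-mercaptoethanol, vitamin C and LIF. 5C-Oct4GFP+ cells were also moved into naive medium (LIF with inhibitors of MEK and GSK3) or primed medium (bFGF and activin A), which gave 5C-Oct4GFP+ (naive) and 5C-Oct4GFP+ (primed) cells, both labelled as passage 20. In one place the study's text gives a far shorter culture for these 2 groups, and the time that the conversion differences cover was not settled here. R1 ESCs-primed, also at passage 20, are mouse embryonic stem cells of the R1 line and do not come from OG2 MEFs. They were brought to the primed state on MEF feeder cells and later kept on serum-coated plates, where the authors replaced bFGF and activin A by CHIR99021 and IWR-1. All OG2 groups thus share the transgene and the retroviruses, and the reads of retroviral *Oct4* cannot be told apart from those of the gene itself. No library of untreated MEFs was analysed here.

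Actin filaments that carry tropomyosin and are pulled by myosin give fibroblasts and smooth muscle cells their tension. SRF switches on the genes of this apparatus when its MRTF cofactors, released by actin polymerisation, enter the nucleus. TGF-β acts through its receptors and SMAD proteins to raise many of the same genes in myofibroblasts, and YAP with its TEAD partners raises *Ccn1* and *Ccn2* in spread cells under tension. The programme is a known property of fibroblasts, and it is also switched on during epithelial-mesenchymal transition.

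RefSeq start-site windows on GRCm38.p6, from 250 bases before to 50 bases after the start, were at hand for 6 of the 9 genes (*Acta2*, *Cnn1*, *Myl9*, *Tpm1*, *Tpm2* and *Ccn1*), and not for *Tagln*, *Thbs1* and *Ccn2*. They were searched on both strands for the strict CArG box bound by SRF (CCWWWWWWGG, with W for A or T), the TEAD motif GGAATG and the SMAD motif CAGACA. Looser forms of the CArG box, and boxes outside the windows, were not searched. A CArG box lay in 1 of the 6 windows (*Myl9*), against 1.63% of 32851 windows in all. The TEAD motif lay in 3 of the 6 (*Acta2*, *Ccn1* and *Tpm1*), against 14.7% of all windows, and the SMAD motif in 1 (*Acta2*), against 21.0%. The GRCm38 gene models of GENCODE begin *Acta2* and *Tpm1* farther upstream than these windows assume. The TEAD letters of both thus lie inside the gene there and not before its start. For both genes, little of the sequence before the GENCODE start was searched for any motif, the CArG box included. Parts of the *Myl9* and *Ccn1* windows, which lie before the start in both annotations, are shown because they hold the SRF and TEAD letters of genes described next. Each is written 5′ to 3′ on the strand of its gene with the motif in capitals, and neither motif overlaps another. The stretches are chr2:156775258-156775357 (+) for *Myl9* and chr3:145650038-145650133 (-) for *Ccn1*, and the first base of the motif lies 161 and 103 bases before the RefSeq start, respectively.
Myl9, CArG box: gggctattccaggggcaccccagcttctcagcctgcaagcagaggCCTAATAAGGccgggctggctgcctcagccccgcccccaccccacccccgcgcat
Ccn1, TEAD motif on the other strand: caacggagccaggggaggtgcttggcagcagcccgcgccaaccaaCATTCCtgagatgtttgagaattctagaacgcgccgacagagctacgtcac
A match of letters is a description of the sequence and not evidence of binding.

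Depth was between 6108252 and 11496615 expected counts per library. Levels are given as TPM (a level per transcript length, on a scale with the same sum in every library, so that genes can be compared), and ratios of TPM carry exact Clopper-Pearson 95% intervals from the counts, which cover counting error only, without any variation among cultures. Summed over the 9 genes, the level was 135 TPM in Oct4GFP+ and 2691 TPM in Oct4GFP- cells from mES medium, and 690.17 and 1971 TPM in those from 5C medium. It was 96.7 TPM in naive cells, 824 TPM in primed cells (short here for 5C-Oct4GFP+ cells converted in naive or primed medium) and 734 TPM in R1 ESCs-primed. The libraries thus fell into a low pair (mES-Oct4GFP+ and naive), a middle group of 3 and a high pair of Oct4GFP- cells. *Ccn1* was the highest of the 9 genes in 5C-Oct4GFP+ and in both Oct4GFP- libraries, and *Tpm1* in the other 4.

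The label MEF names the origin of the OG2 cells. Of 12 fibroblast markers, 12 were at 1 TPM or more in each Oct4GFP- library, with sums of 773 TPM for mES and 537 TPM for 5C medium. For Oct4GFP+ cells the sums were 24.5 TPM from mES medium, 46.9 TPM from 5C medium and 22.7 TPM after naive conversion, with 7, 5 and 8 markers at 1 TPM or more. The primed cells had 128 TPM and R1 ESCs-primed 323 TPM, with 12 of 12 at 1 TPM or more in both. Of the 8 smooth muscle and pericyte markers, *Myh11*, the myosin heavy chain of smooth muscle, was at most 0.29 TPM in any library, although the list summed to between 24.0 and 141 TPM, mostly *Smtn* and *Notch3*. In Oct4GFP- cells, 6 of the 8 were at 1 TPM or more from mES and 4 from 5C medium, against 3 and 4 in Oct4GFP+ cells. *Cspg4* of this list was at 24.1 and 30.2 TPM in those Oct4GFP- libraries and at 0.08 and 2.04 TPM in the Oct4GFP+ ones. In bulk RNA, fewer cells of a type and less RNA per cell cannot be told apart.

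*Acta2* (ENSMUSG00000035783, chr19:34241090-34255590, minus strand, GRCm38) encodes smooth muscle α-actin, the standard marker of myofibroblasts. It was at 0.88 TPM in Oct4GFP+ and 286 TPM in Oct4GFP- cells from mES medium, 4.92 and 145 TPM in those from 5C medium, 0.99 TPM in naive cells, 15.2 TPM in primed cells and 5.78 TPM in R1 ESCs-primed. Both Oct4GFP- libraries stood far above the other 5, and the mES-Oct4GFP+ and naive values rested on 5 and 8 reads. *Tagln* (ENSMUSG00000032085, chr9:45929619-45936058, minus strand), encoding the actin-bundling protein SM22α, had 1.79, 136, 15.1, 96.0, 1.96, 9.25 and 13.2 TPM in the same order of libraries. The high and low pairs were those of *Acta2*, and between them 5C-Oct4GFP+ cells and R1 ESCs-primed could not be told apart at this depth. *Tagln* overlaps *Pcsk7* and an antisense gene on the other strand, and whether reads were counted by strand is not given in the sources used here. Within both genes, the mES-Oct4GFP+ and naive values could not be told apart at this depth.

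*Myl9* (ENSMUSG00000067818, chr2:156775420-156781658, plus strand), a regulatory light chain of non-muscle and smooth muscle myosin, was at 1.19 TPM in Oct4GFP+ and 43.2 TPM in Oct4GFP- cells from mES medium, 16.8 and 33.2 TPM in those from 5C medium, 0.79 TPM in naive cells, 16.7 TPM in primed cells and 18.2 TPM in R1 ESCs-primed. The lowest 2 values came from 3 reads each, and the 3 middle libraries differed by less than their counting intervals. *Cnn1* (ENSMUSG00000001349, chr9:22099216-22109630, plus strand), encoding calponin, an actin-binding protein of smooth muscle, was the lowest of the 9 in every library but the 2 primed ones. It had 3.16 TPM in mES-Oct4GFP- cells, 1.14 and 2.14 TPM in Oct4GFP+ and Oct4GFP- cells from 5C medium, 8.93 TPM in primed cells and 10.9 TPM in R1 ESCs-primed. No read was counted in mES-Oct4GFP+ or naive cells, which with a floor of 3 counts allows up to 0.393 and 0.277 TPM. Unlike the genes above, *Cnn1* was highest in the primed libraries, with 129 and 96 reads.

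The tropomyosins *Tpm1* (ENSMUSG00000032366, chr9:67022590-67049406, minus strand) and *Tpm2* (ENSMUSG00000028464, chr4:43514711-43523765, minus strand) encode the coiled-coil proteins that run along actin filaments. *Tpm1* was at 79.96 TPM in Oct4GFP+ and 709.99 TPM in Oct4GFP- cells from mES medium, 141 and 361 TPM in those from 5C medium, 39.8 TPM in naive cells, 529 TPM in primed cells and 481 TPM in R1 ESCs-primed. All 6 steps in this order had intervals that left out 1. *Tpm2* had 6.64, 109, 21.3, 24.5, 1.59, 101 and 119 TPM in the same order of libraries. For *Tpm2* the primed libraries lay near mES-Oct4GFP- and above 5C-Oct4GFP-, and for *Tpm1* they lay between those Oct4GFP- libraries. *Acta2* and *Tagln*, by contrast, had their highest values in both Oct4GFP- libraries. *Tpm1* alone made up between 54.5% and 88.4% of the summed level of the 6 contractile genes. RSEM assigned 19 transcripts to *Tpm1* and 6 to *Tpm2*, and the mean transcript length it gave for *Tpm2* moved from 871 bases in naive to 1345 bases in 5C-Oct4GFP- cells. The estimated use of isoforms thus enters the TPM. Actins, tropomyosins and myosin light chains share near-identical stretches with their relatives, between which RSEM divides the reads.

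*Thbs1* (ENSMUSG00000040152, chr2:118111876-118127133, plus strand) encodes thrombospondin-1, a matrix glycoprotein that can release TGF-β from its latent form. It was at 0.98 TPM in Oct4GFP+ and 175 TPM in Oct4GFP- cells from mES medium, 8.06 and 64.3 TPM in those from 5C medium, 1.17 TPM in naive cells, 8.86 TPM in primed cells and 9.68 TPM in R1 ESCs-primed. The Oct4GFP- libraries were high, the mES-Oct4GFP+ and naive libraries low, and the other 3 between them and within each other's counting intervals. *Ccn1* (ENSMUSG00000028195, chr3:145646976-145649981, minus strand), also named *Cyr61*, encodes a matrix protein that binds integrins. It had 15.2 TPM in Oct4GFP+ and 837 TPM in Oct4GFP- cells from mES medium, 304 and 962 TPM in those from 5C medium, 24.5 TPM in naive cells, 118 TPM in primed cells and 51.5 TPM in R1 ESCs-primed. *Ccn1* was the one member highest in 5C-Oct4GFP- cells, and all 6 steps in its order had intervals that left out 1.

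*Ccn2* (ENSMUSG00000019997, chr10:24595442-24598683, plus strand), also named *Ctgf*, encodes connective tissue growth factor and was at 27.9, 392, 178, 283, 25.9, 17.8 and 24.5 TPM in the same order. The naive and both primed libraries were all at or below the level of mES-Oct4GFP+ cells, and 5C-Oct4GFP+ cells lay nearer to the Oct4GFP- cells. *Thbs1* and *Ccn2* overlap a non-coding gene each on the other strand. The 2 CCN genes did not keep a fixed proportion, since the level of *Ccn1* over that of *Ccn2* was 0.546 among Oct4GFP+ cells from mES medium, 1.70 among those from 5C medium and 6.61 after conversion in primed medium.

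**Figure D1:**
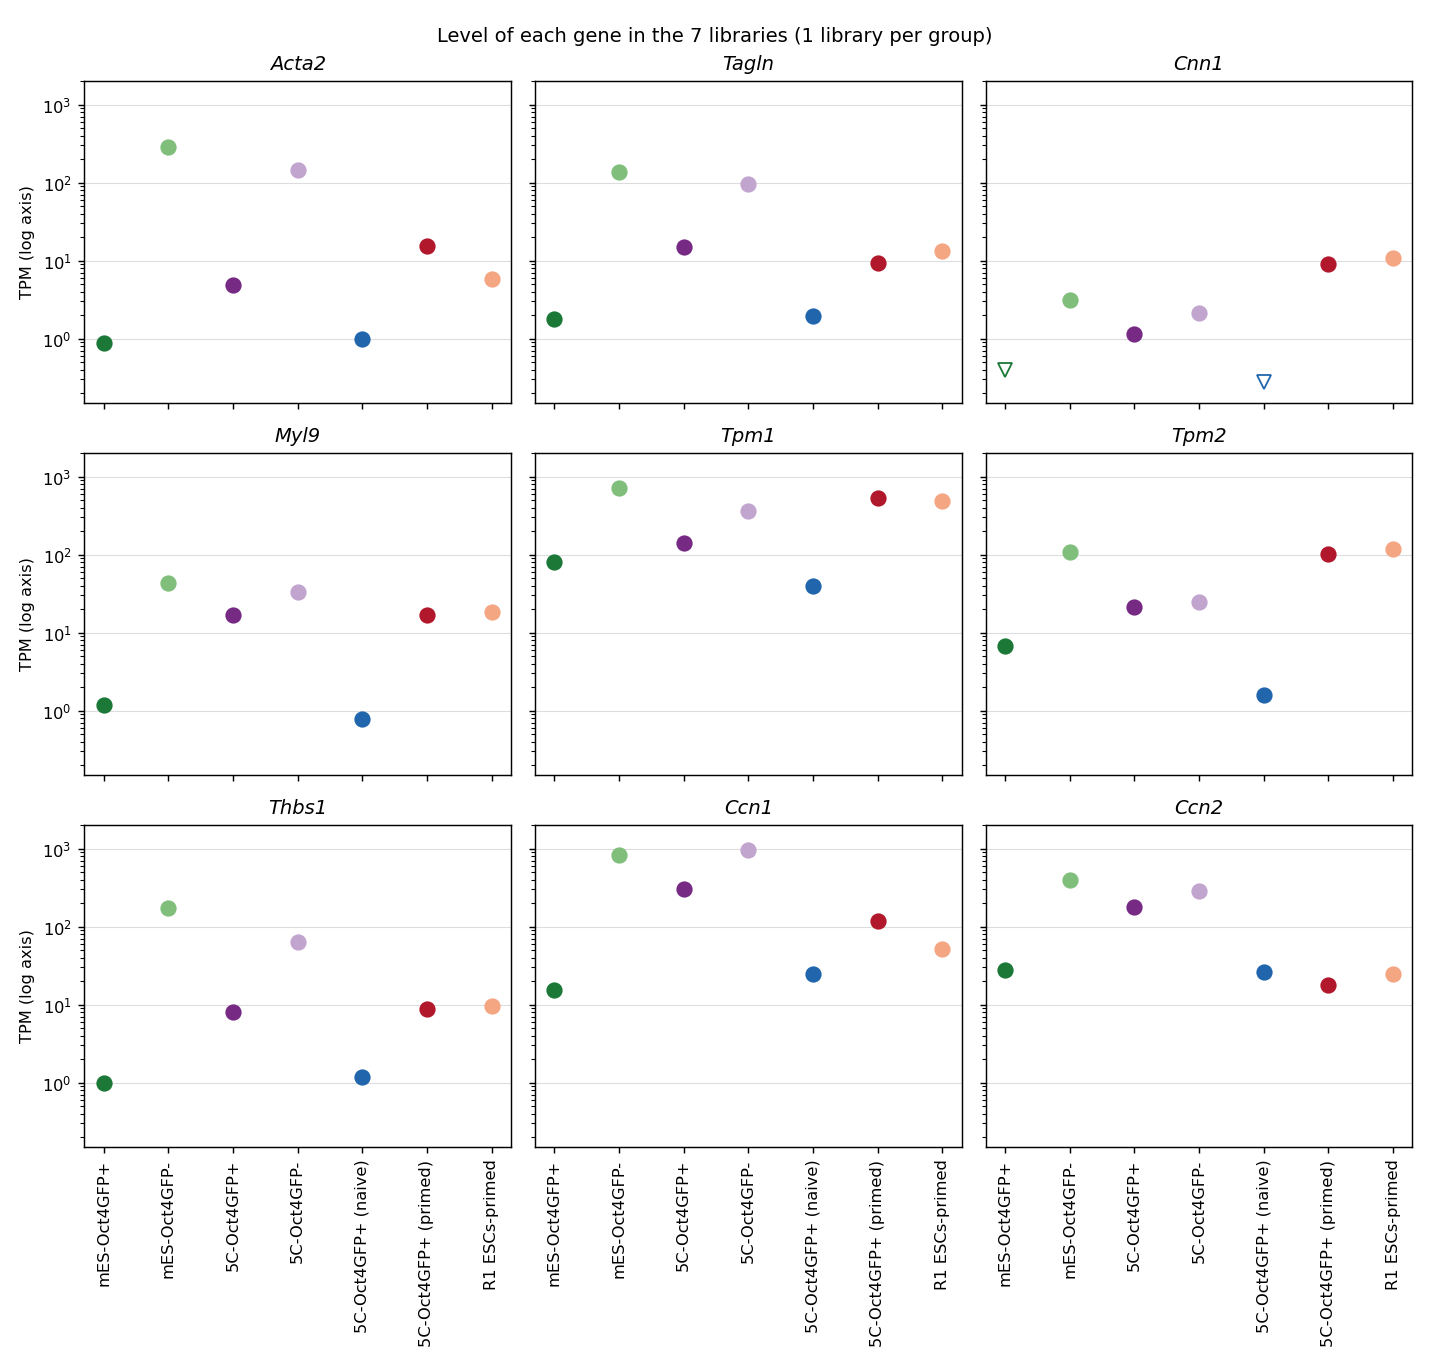
TPM on a log axis (vertical) of each of the 9 genes in each of the 7 libraries (horizontal), 1 point per library without replicates; open triangles mark the level of 3 counts where no read was counted. The Oct4GFP- libraries lead 7 of the 9 panels, R1 ESCs-primed leads *Cnn1* and *Tpm2*, and mES-Oct4GFP+ or naive cells are lowest in every panel but that of *Ccn2*.

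The first comparison asks how Oct4GFP+ cells from 5C medium differed from those from mES medium. All 9 genes were higher in 5C-Oct4GFP+ cells, and 8 of them by at least 2-fold on the log2(TPM + 1) scale, the cut used for every count here together with 1 TPM or more in either library. Over all 15196 genes tested, 13.7% passed this cut upward and 13.5% downward. The median difference of the 9 genes was 2.19 against -0.06 for all genes. *Ccn1* had the largest difference on the log2(TPM + 1) scale, with a TPM ratio of 20.0 (95% interval 16.4 to 24.7). The ratio was 8.42 (4.30 to 18.8) for *Tagln*, 8.25 (4.90 to 15.0) for *Thbs1*, 6.40 (5.56 to 7.39) for *Ccn2* and 5.60 (2.24 to 18.0) for *Acta2*. *Myl9* had a ratio of 14.1 whose interval ran from 4.69 to 69.6, since the lower value rested on 3 reads. *Tpm2* rose by a ratio of 3.21 (2.05 to 5.22), and *Cnn1*, with 15 reads against none, stood at 2.90 times the level of 3 counts, with a lower 95% limit of 2.09 for its ratio. The call of *Cnn1* was lost with FPKM (0.70 on the log2 scale), and those of *Cnn1* and *Acta2* with a minimum of 5 TPM. *Tpm1*, the most abundant of the 9 in mES-Oct4GFP+ cells, was the one gene that missed the cut, with a ratio of 1.76 (1.56 to 1.98). Of 9 fibroblast markers tested beside them, 2 were at least 2-fold higher and 3 lower. The higher ones were *Thy1*, with 5.16 against 0.72 TPM, and *Fbln2*, with 32.1 against 5.35 TPM. Among the lower ones *Pdgfrb*, encoding a receptor for platelet-derived growth factor, was at 0.13 TPM against 4.11 TPM in mES medium. Most of the marker sum in 5C-Oct4GFP+ cells was *Fbln2*. Of 4 smooth muscle and pericyte markers tested, 3 were at least 2-fold higher and 0 lower. Of 6 epithelial markers, 4 were at least 2-fold higher, among them *Krt18* with 48.2 against 1.36 TPM. The part of these markers in the result was not tested.

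In the Oct4GFP- cells the media compared the other way. Only *Ccn1* was above its mES level in 5C-Oct4GFP- cells, by a ratio of 1.15 (1.11 to 1.19), and the other 8 genes were below. The cut was passed by *Tpm2*, which was 4.44-fold lower (3.67 to 5.40), and by *Thbs1*, which was 2.73-fold lower (2.57 to 2.89). Of all 15859 genes tested, 10.1% were lower by this cut and 9.69% higher, and 2 of 9 genes is too few to be set apart from that background. *Acta2* and *Tpm1* fell just short of the cut, 1.97-fold lower each, and the interval of *Cnn1* held 1. Fibroblast markers moved in the same direction, with 7 of 12 at least 2-fold lower and 1 higher, *Thy1*.

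Both comparisons were made on different libraries. A gene higher in 5C than mES medium among Oct4GFP+ cells and lower among Oct4GFP- cells, by any size, was found for 8 of the 9, against 21.9% of the 13903 genes tested in both. With at least 2-fold in Oct4GFP+ cells, this held for 7 of the 9, against 6.83% of all genes. It also held by any size for 10 of 11 other contractile genes, 10 of 14 other YAP targets and 4 of 6 other TGF-β targets, and likewise for 4 of 6 epithelial markers, each of which was at least 2-fold higher in Oct4GFP+ cells of 5C medium. It held for 1 of 9 fibroblast markers and for none of the 6 TGF-β receptors. The difference between the fractions could not be tested with 1 library each.

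**Figure D2:**
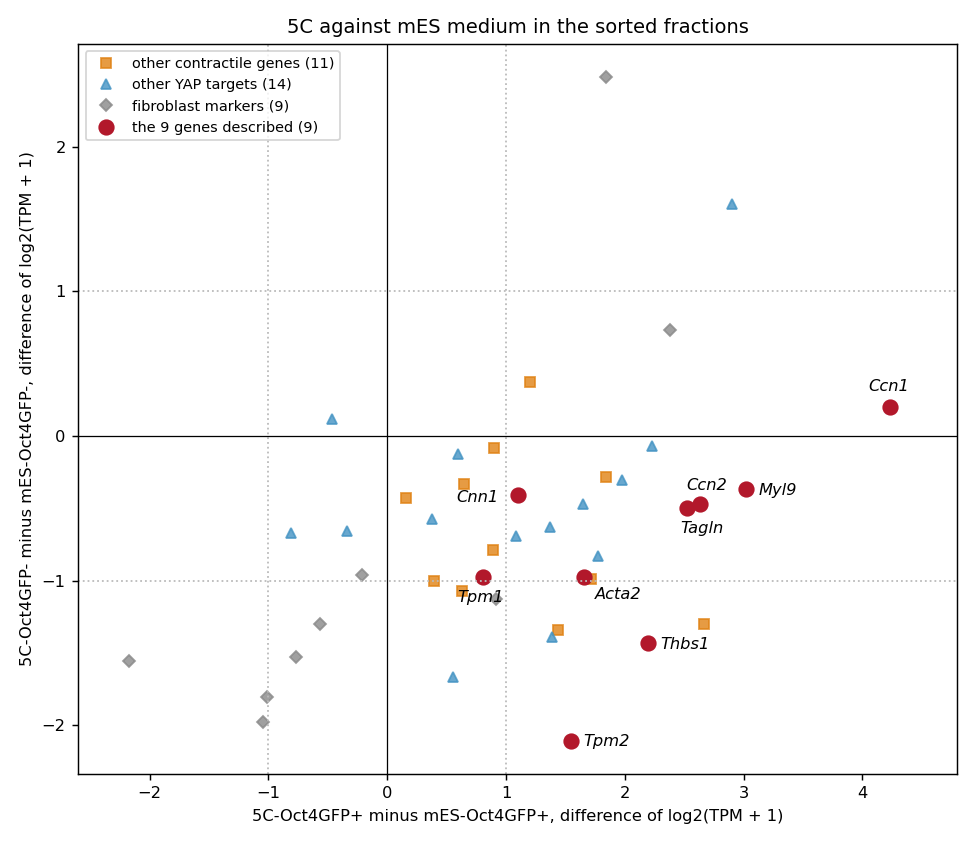
Difference of log2(TPM + 1) between 5C and mES medium in Oct4GFP+ cells (horizontal) and Oct4GFP- cells (vertical), 1 point per gene tested in both, with dotted lines at 2-fold. Of the 9 genes, 8 lie in the lower right corner and *Ccn1* just above it, while 1 of the 9 fibroblast markers lies there.

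Within mES medium, all 9 genes were at least 2-fold lower in Oct4GFP+ than in Oct4GFP- cells, a direction taken by 28.8% of all genes tested while 17.9% were higher. The distance was widest for *Acta2*, 325-fold lower (139 to 1003), and for *Thbs1*, 179-fold lower (109 to 320.44). *Tagln* was 76.0-fold, *Ccn1* 55.0-fold, *Myl9* 36.3-fold, *Tpm2* 16.4-fold, *Ccn2* 14.1-fold and *Tpm1* 8.88-fold lower, the value of *Myl9* resting on 3 reads (12.2 to 178). *Cnn1* was 8.05-fold lower if the library without a read is set to the floor of 3 counts, and the lower 95% limit of the fold was 6.18. With a minimum of 5 TPM *Cnn1* was not tested, which left 8 of 8. The fibroblast markers were lower in 12 of 12, from a sum of 773 to 24.5 TPM, and their part in these differences was not tested.

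Within 5C medium the sorted fractions lay closer together. Here 5 of the 9 genes were at least 2-fold lower in Oct4GFP+ cells, where 22.6% of all genes were lower and 8.45% higher. These were *Acta2* (29.5-fold, 22.1 to 40.2), *Thbs1* (7.97-fold), *Tagln* (6.38-fold), *Ccn1* (3.17-fold) and *Tpm1* (2.57-fold). *Myl9* and *Ccn2* missed the cut at 1.98-fold (1.51 to 2.61) and 1.58-fold (1.496 to 1.677) lower. The intervals of *Cnn1* and *Tpm2* held 1, and the sign for *Tpm2* turned when the libraries were rescaled by median ratios, from -0.19 to 0.02. As a share of the Oct4GFP- level, the Oct4GFP+ level ran from 0 to 11.3% in mES medium, with a median of 1.82%, and from 3.39% to 86.9% in 5C medium, with a median of 39.0%. Every one of the 9 shares was larger in 5C medium. For all 9 genes this follows from the ratios between media above, made on the same libraries, and is not a further result. These shares were not computed over all genes. Fibroblast markers remained far apart in 5C medium, since 11 of 12 were at least 2-fold lower in the Oct4GFP+ library. Of 4 smooth muscle and pericyte markers tested, 1 was at least 2-fold lower there and 0 higher.

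Conversion of 5C-Oct4GFP+ cells in naive medium went with a fall of all 9 genes by at least 2-fold, against 17.5% of all genes lower and 10% (1488 of 14863) higher. The median difference was -2.44, against -0.10 for all genes. *Tpm2* was 13.4-fold lower (5.99 to 37.1), *Ccn1* 12.4-fold (10.9 to 14.3), *Tagln* 7.68-fold (4.42 to 14.4), *Ccn2* 6.89-fold (6.08 to 7.82) and *Tpm1* 3.53-fold (3.07 to 4.08). *Thbs1* and *Acta2* were 6.87-fold and 4.96-fold lower, *Myl9* 21.3-fold with 3 reads left (7.09 to 105.06), and *Cnn1* 4.12-fold against the floor of 3 counts, with a lower 95% limit of 2.97. With FPKM the call of *Cnn1* was lost (-0.70), which left 8 genes, and with a minimum of 5 TPM *Cnn1* and *Acta2* were not tested, which left 7. The fall of *Tpm2* rested on 6 reads in naive cells. Of 9 fibroblast markers tested, 3 were lower and 1 higher. All 4 smooth muscle and pericyte markers tested were at least 2-fold lower. The naive cells ended near mES-Oct4GFP+ cells, a comparison in which 6.27% of genes were lower and 2.49% higher. Of the 7 members that reached 1 TPM in either library, none was at least 2-fold higher, and *Tpm2* was 4.17-fold lower (1.65 to 12.5), with 6 reads against 23. *Tpm1*, at 2.01-fold lower by TPM (1.70 to 2.38), fell just short of the cut on the log2(TPM + 1) scale. *Ccn1* was 1.61-fold higher (1.27 to 2.06).

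In primed medium the 9 genes parted, with 4 of the contractile genes above and both CCN genes below their level before conversion. *Cnn1* rose by a TPM ratio of 7.80 (4.56 to 14.3), *Tpm2* by 4.74 (3.95 to 5.72), *Tpm1* by 3.76 (3.53 to 4.01) and *Acta2* by 3.08 (2.22 to 4.35), 4 of the 9, where 13.7% of all genes were at least 2-fold higher. *Ccn2* fell 10.004-fold (8.77 to 11.5) and *Ccn1* 2.58-fold (2.42 to 2.74), 2 of the 9, where 16.1% of all genes were lower. As a count, 2 of 9 genes is too few to be set apart from that background. *Tagln* was 1.63-fold lower (1.23 to 2.16) and did not pass the cut. For *Myl9* and *Thbs1* the ratios were 0.994 (0.730 to 1.35) and 1.10 (0.926 to 1.31), whose intervals held 1. The summed level of the 6 contractile genes was 199.7 TPM before conversion, 45.1 in naive and 679.87 in primed cells, of which *Tpm1* made up 77.8% in primed cells. The summed level of the 3 secreted genes was 490.45 TPM before conversion, 51.5 in naive and 145 in primed cells, against 1309 TPM in 5C-Oct4GFP- cells. Fibroblast markers were at least 2-fold higher in primed cells for 10 of 12, from a sum of 46.9 to 128 TPM, and their part in the rise was not tested. Of 4 smooth muscle and pericyte markers tested, 0 passed the cut in either direction. The comparisons with naive and primed cells, and the first comparison above, share the 5C-Oct4GFP+ library, and the other sorted libraries also enter more than one comparison each.

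**Figure D3:**
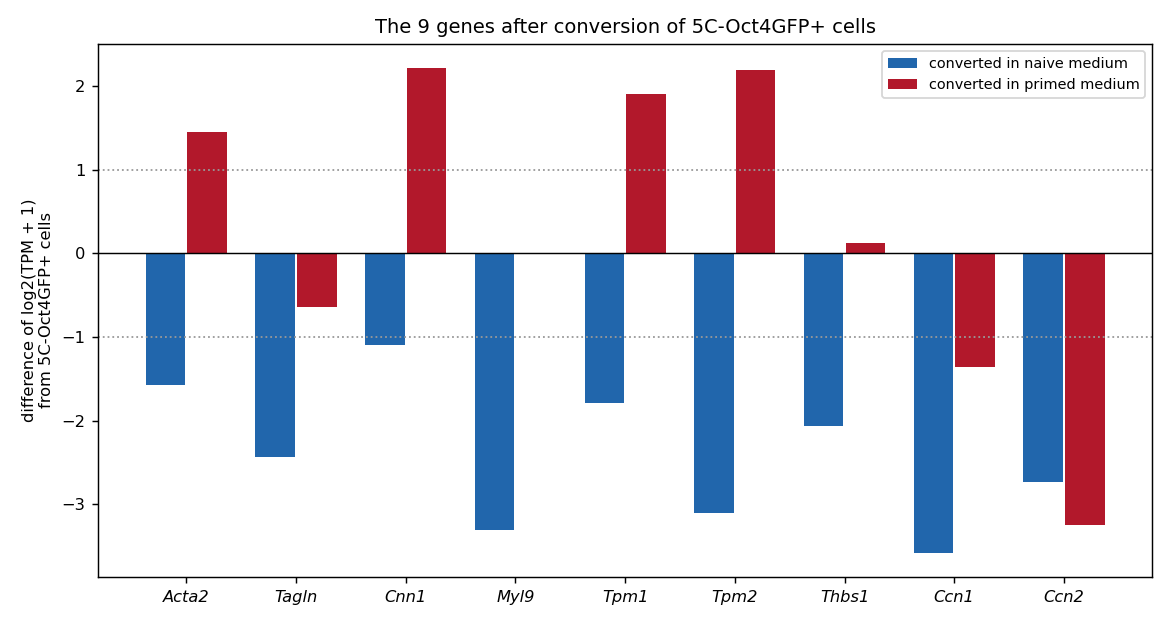
Difference of log2(TPM + 1) from 5C-Oct4GFP+ cells (vertical) for each of the 9 genes (horizontal) after conversion in naive or primed medium, 1 library each, with dotted lines at 2-fold. The naive bars all pass below the lower line, whereas the primed bars pass the upper line for *Acta2*, *Cnn1*, *Tpm1* and *Tpm2*, pass the lower line for *Ccn1* and *Ccn2*, and are too short to see for *Myl9*.

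Against R1 ESCs-primed, the 5C-Oct4GFP+ (primed) cells differed at the cut in 2 of the 9, *Acta2* with a ratio of 2.62 (1.83 to 3.84) and *Ccn1* with 2.29 (2.05 to 2.57), both higher. Among all genes 2.30% were higher and 5.11% lower, and none of the 9 was at least 2-fold lower. Ratios of the other 7 ranged from 0.699 for *Tagln* to 1.10 for *Tpm1*, and the intervals of *Cnn1*, *Myl9* and *Thbs1* held 1. Of 12 fibroblast markers, 9 were at least 2-fold lower in 5C-Oct4GFP+ (primed) cells.

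*Tagln2*, *Cnn2* and *Tpm4*, which encode the more widely expressed forms of SM22, calponin and tropomyosin, were at 66.3, 16.3 and 88.4 TPM in Oct4GFP+ and at 539, 215 and 564 TPM in Oct4GFP- cells from mES medium. In 5C-Oct4GFP+ cells they were at 226, 53.6 and 126 TPM, and in naive cells at 47.3, 9.18 and 77.4 TPM. *Actg1*, a cytoplasmic actin and the highest of this list, ranged from 1619 TPM in naive to 3553 TPM in primed cells. Not all relatives followed the order of *Tagln2*, *Cnn2* and *Tpm4*. *Cnn3* and *Myl12b* were highest in mES-Oct4GFP+ cells, at 513 and 476 TPM, against 302 and 291 TPM in mES-Oct4GFP- cells. Of 13 relatives tested between the 2 media in Oct4GFP+ cells, 8 were above their mES level by any size. At least 2-fold higher were 2, and 1 was lower, *Tagln3*. Over all genes, 13.7% were higher and 13.5% lower, and these counts are too few to be set apart from that background.

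Among Oct4GFP+ cells, 11 of 11 other contractile genes tested were above their mES level in 5C medium, 5 of them at least 2-fold. There 13.7% of all genes were at least 2-fold higher. In mES-Oct4GFP+ against mES-Oct4GFP- cells, 12 of these 15 contractile genes were at least 2-fold lower, against 28.8% of all genes. Within 5C medium they were less uniform, with 6 of 14 at least 2-fold lower in Oct4GFP+ cells and 1 higher (*Csrp2*). Of all genes, 22.6% were lower and 8.45% higher there. By any size, 5 of the 14 were above 0, where all 9 members were below. The contractile list shares *Myh11* and *Smtn*, among others, with the smooth muscle and pericyte markers, so that counts of both lists are not independent. *Actg2*, encoding smooth muscle γ-actin, was at 129 TPM in Oct4GFP- cells from mES medium and 27.5 TPM in those from 5C medium, and below 1 TPM in the other 5 libraries. *Cald1*, encoding caldesmon, was at 33.3 TPM in Oct4GFP+ and 335 TPM in Oct4GFP- cells from mES medium, and at 52.2 and 159 TPM in those from 5C medium. *Csrp2*, encoding a LIM-domain protein of smooth muscle, went against this order, with 399 TPM in 5C-Oct4GFP+ cells as its highest value and 217 TPM in mES-Oct4GFP- cells.

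Of the upstream SRF genes, *Srf* itself was at 21.7 TPM in Oct4GFP+ and 51.4 TPM in Oct4GFP- cells from mES medium, 49.6 and 60.8 TPM in those from 5C medium, 19.0 TPM in naive cells, 63.5 TPM in primed cells and 60.8 TPM in R1 ESCs-primed. *Srf* was thus low in the pair of libraries with the lowest summed level of the 9 genes and similar in the other 5. Of the 9 genes, *Ccn2* went against this order, with its lowest level in primed cells, at 17.8 TPM. The cofactor genes *Mrtfa*, from 13.0 to 17.6 TPM, and *Mrtfb*, from 8.72 to 21.6 TPM, varied less. *Myocd*, the cofactor of cardiac and smooth muscle, reached 1.89 TPM in mES-Oct4GFP- cells and was at most 0.23 TPM elsewhere.

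*Tgfb1*, the gene of the main TGF-β ligand, was at 2.29 TPM in Oct4GFP+ and 37.0 TPM in Oct4GFP- cells from mES medium, 5.45 and 15.4 TPM in those from 5C medium, 3.37 TPM in naive cells, 51.5 TPM in primed cells and 52.7 TPM in R1 ESCs-primed. *Tgfb2* and *Tgfb3* reached 29.6 and 15.95 TPM in Oct4GFP- cells from mES medium and 13.9 and 12.5 TPM in those from 5C medium, and were at most 1.13 TPM in Oct4GFP+ cells of either medium and in naive cells. *Inhba*, encoding the activin A subunit, was highest in R1 ESCs-primed at 5.36 TPM. *Ltbp1* and *Ltbp2* encode proteins that hold latent TGF-β, and *Itgav* an integrin chain that can activate it. *Ltbp1* ranged from 31.7 to 78.4 TPM, *Ltbp2* from 0.69 to 9.85 TPM and *Itgav* from 17.2 to 93.4 TPM. None of the 5 genes of this list tested between the media in Oct4GFP+ cells passed the cut. After conversion in primed medium, 5 of 7 were at least 2-fold higher, against 13.7% of all genes.

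Of the 6 receptor genes, none passed the cut upward in Oct4GFP+ cells of 5C medium (13.7% of all genes) and 2 passed it downward (13.5%). These were *Tgfbr1* and *Tgfbr3*, at 9.03 against 21.6 TPM and 0.45 against 6.44 TPM. *Tgfbr2*, the receptor that binds the ligand first, was at 41.2 and 59.9 TPM in the Oct4GFP- libraries and at most 12.3 TPM in the others. The co-receptor gene *Eng* was highest in mES-Oct4GFP+ cells at 58.0 TPM and lowest in primed cells at 2.41 TPM. The activin receptor genes *Acvr1b*, from 18.4 to 31.8 TPM, and *Acvr2a*, from 5.41 to 13.0 TPM, were more even. Among the mediators, 1 of 7 was higher in Oct4GFP+ cells of 5C medium, *Skil*, an inhibitor of SMADs that is itself induced by TGF-β, with 44.4 against 9.42 TPM.

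Of the other TGF-β targets, 3 of 6 were at least 2-fold higher in Oct4GFP+ cells of 5C medium and none lower. Over all genes, 13.7% were higher and 13.5% lower. *Tgfbi*, encoding a matrix protein, was at 16.7 against 4.15 TPM, and *Timp3*, encoding an inhibitor of matrix proteases, at 9.81 against 3.35 TPM.

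*Yap1* was between 92.2 and 139 TPM in all 7 libraries, and *Wwtr1*, encoding TAZ, between 24.8 and 85.3 TPM, highest in mES-Oct4GFP- cells. Of the TEAD genes, *Tead1* ranged from 23.0 to 50.7 TPM and *Tead2* from 90.8 to 374 TPM, highest in primed cells. *Tead3* was the 1 of 6 genes of this list at least 2-fold higher in Oct4GFP+ cells of 5C medium, at 12.7 against 4.88 TPM, and *Tead4* was at 25.0 against 12.2 TPM. Of 11 Hippo kinases and inhibitors, 1 was higher in that comparison, *Nf2*, encoding merlin, with 199 against 96.2 TPM, and 2 were lower. There 13.7% of all genes were higher and 13.5% lower. *Amot*, encoding angiomotin, which holds YAP outside the nucleus, was at 2.38 TPM in 5C-Oct4GFP+ cells and 364 TPM after conversion in primed medium.

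Of 14 other YAP targets tested, 8 were at least 2-fold higher in Oct4GFP+ cells of 5C medium and none lower, with a median difference of 1.22. Over all genes, 13.7% were higher and 13.5% lower. *Amotl2*, a relative of angiomotin, was at 31.8 TPM in Oct4GFP+ and 140 TPM in Oct4GFP- cells from mES medium, 102 and 101 TPM in those from 5C medium, 36.9 TPM in naive cells, 49.6 TPM in primed cells and 40.7 TPM in R1 ESCs-primed. Its 3 highest libraries were those of *Ccn2*. *Gadd45a*, a stress-response gene, and *Nuak2*, a kinase gene, were at 98.0 against 24.2 TPM and 22.2 against 2.09 TPM in the same comparison. *Ankrd1*, a common reporter of YAP activity in fibroblasts, was at 14.6 TPM in mES-Oct4GFP- cells but at 0.10 TPM in 5C-Oct4GFP+ cells. After conversion, 8 of 14 of these targets were lower in naive cells, against 17.5% of all genes. In primed cells 5 of 16 were lower and 2 higher, against 16.1% and 13.7% of all genes. The counts in primed cells are too few to be set apart from that background.

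**Figure D4:**
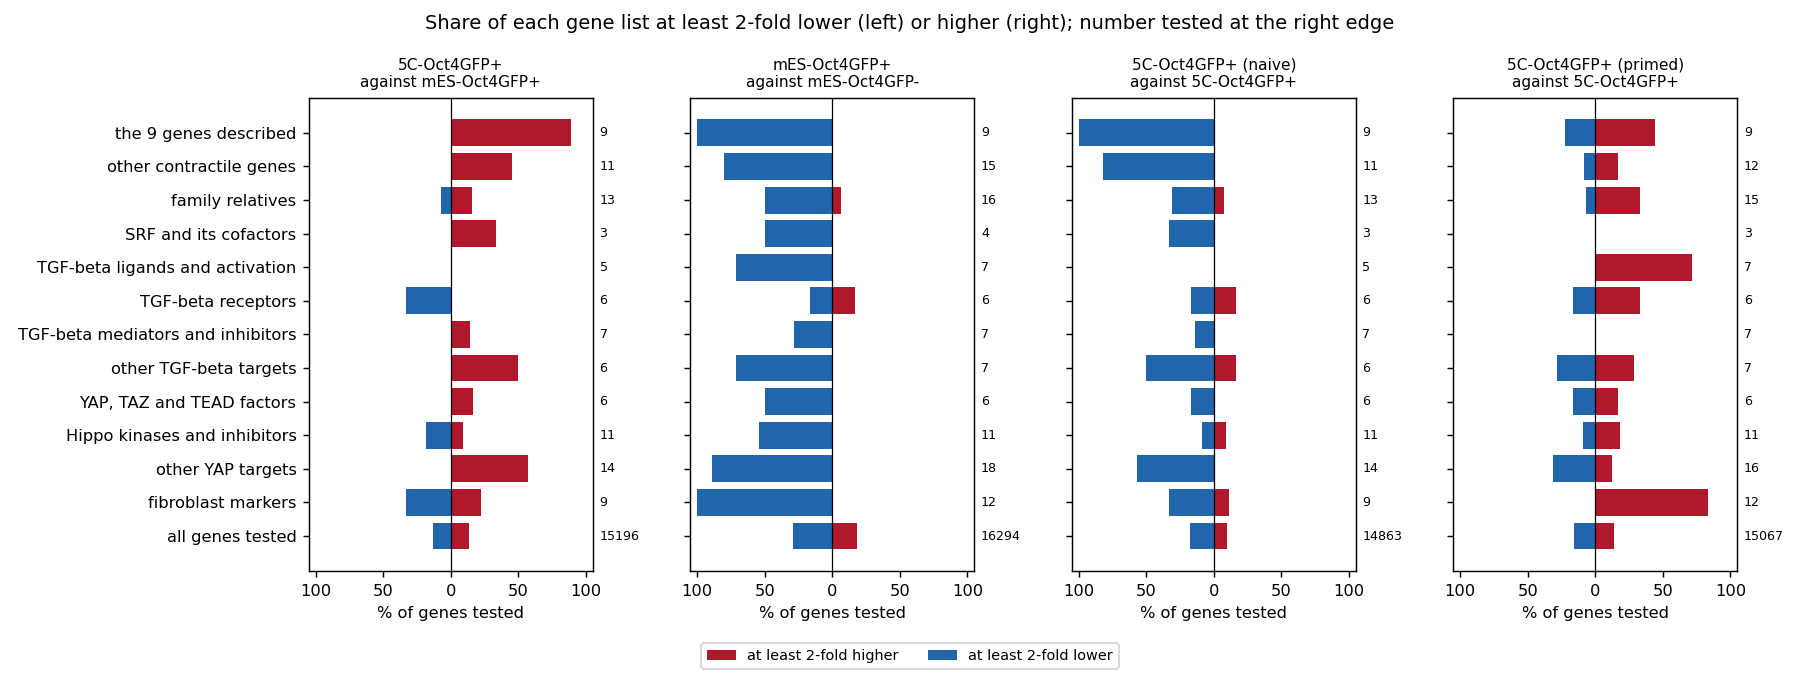
Percent of the genes tested in each list (vertical) that were at least 2-fold lower (left of 0) or higher (right of 0) on the log2(TPM + 1) scale, in 4 comparisons of 1 library each; the number tested stands at the right edge. The 9 genes reach 8 of 9 higher in 5C-Oct4GFP+ against mES-Oct4GFP+ cells and 9 of 9 lower in the middle panels, beside 13.7%, 28.8% and 17.5% of all genes in those directions.

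Over the 7 libraries, the 36 pairs among the 9 genes had Pearson correlations of log2(TPM + 1) from -0.08 (*Cnn1* with *Ccn2*) to 0.989 (*Tagln* with *Thbs1*), with a median of 0.796 and 10 pairs above 0.9. *Acta2*, *Tagln* and *Thbs1* were alike (0.962 to 0.989), as were *Cnn1*, *Tpm1* and *Tpm2* (0.870 to 0.963), and *Ccn1* with *Ccn2* had 0.878. These values describe 7 points that share their media, their origin and their library depth, and 5C-Oct4GFP+ cells are the source of 2 other libraries. Correlations among pairs of other genes were not computed beside them.

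**Figure D5:**
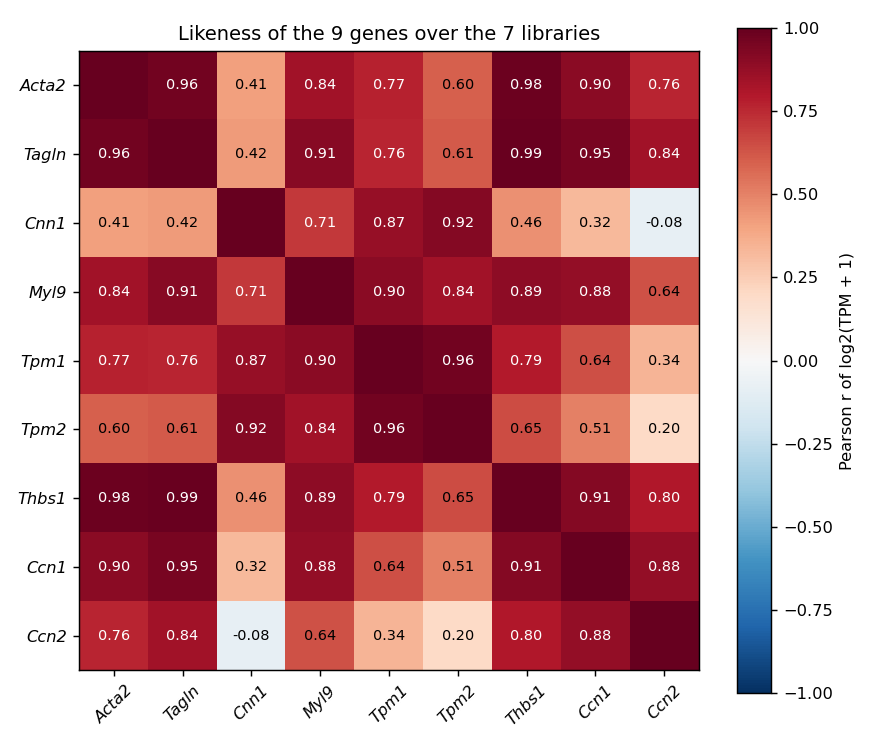
Pearson correlation over the 7 libraries of log2(TPM + 1) for each pair of the 9 genes, with colours from -1 (blue) to 1 (red) and the value in each cell. *Cnn1* and the tropomyosins are alike. *Cnn1* stands apart from *Acta2*, *Tagln* and *Thbs1* (0.41 to 0.46), whereas *Tpm1* does not (0.76 to 0.79). *Cnn1* with *Ccn2* has the lowest value, -0.08.

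Among 11804 genes with 10 TPM or more in a library, the 10 most like the mean pattern of the 9 genes were *Plekhn1*, *Grina*, *Saraf*, *Pon2*, *Podxl*, *Col4a1*, *Mapk3*, *Anxa3*, *Sorbs3* and *Nlgn2*, with correlations from 0.998 down to 0.992 over the 7 libraries. *Podxl*, encoding the membrane protein podocalyxin, was at 5.38 TPM in Oct4GFP+ and 654 TPM in Oct4GFP- cells from mES medium, 90.99 and 239 TPM in those from 5C medium, 5.92 TPM in naive cells, 102 TPM in primed cells and 84.8 TPM in R1 ESCs-primed. *Col4a1*, encoding a collagen of basement membranes, was at 1.24, 289, 25.6, 191, 0.94, 25.3 and 45.9 TPM in the same order. The gene most like a single member was *Slc2a6* for *Acta2*, *Irf2* for *Tagln*, *Fam208b* for *Cnn1*, *Ptpn13* for *Myl9*, *Mob3a* for *Tpm1*, *Creb3l1* for *Tpm2*, *St3gal6* for *Thbs1*, *Pcsk4* for *Ccn1* and *Arhgap23* for *Ccn2*, with correlations between 0.992 and 0.998. The thrombospondin gene *Thbs3* was among the 3 most like *Tpm1*, at 0.997, and *Wwc1*, encoding the Hippo component KIBRA, among the 3 most like *Ccn1*, at 0.9897. All these genes are the top of a ranking of 11804 genes on 7 points. Rankings for other gene sets were not made beside them.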

How the data were processed

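RNA was extracted with TRIzol, libraries were prepared with the Illumina TruSeq kit and sequenced on a MiSeq, and RSEM was run on reads aligned to a transcriptome (submitters' processing notes: Bowtie, RSEM, mm10; versions not given in the sources used here). The expected counts deposited by the authors are RSEM's estimated counts per gene, without normalization. The authors' TPM divide those counts by effective length and give all libraries an equal total, and the deposited FPKM scale them to mapped fragments. Whether counting used strand is not given in the sources used here.

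Genes were matched by symbol to GENCODE M21 (GRCm38) for coordinates, and 165 of 165 listed genes were found. Differences were taken on log2(TPM + 1), which understates changes of low genes. Genes with 1 TPM or more in either library were tested, and at least 2-fold counted as changed. For 8 comparisons of 1 library each, no p-value was computed. Ratio intervals are exact 95% Clopper-Pearson intervals from rounded expected counts and cover counting error only. Where no read was counted, 3 counts served as floor. The code was tested on simulated data.

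The 9 genes and the 19 further lists, written from textbook knowledge, were chosen with earlier results of these data known. Named genes were the 9 members; all genes of the SRF, YAP and TEAD, TGF-β receptor and ligand lists; of every other list the highest gene and the 3 with the largest difference in each of the first 4 comparisons; and the genes most like the members by Pearson correlation. *Myh11*, *Cnn3* and *Myl12b* lie outside this rule and were named after their values were seen. *Myh11* was named as a defining marker, and the others as relatives with another order. Not every gene that this rule allows is reported here. Alternatives were a pseudocount of 0.1, a minimum of 5 TPM or none, median-ratio rescaling, FPKM and CPM. Computation was done in Python 3.11.15 with scipy 1.17.1 for intervals, pandas 2.3.3 and numpy 2.4.6 for tables, and matplotlib 3.10.9 for plots.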

Additional observations from a re-analysis of the deposited data

Results flagged for a closer look

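For 8 of the 9 genes the level in 5C medium was above that in mES medium among Oct4GFP+ cells and below it among Oct4GFP- cells. Each such pair is 1 library against 1 library in both fractions, so the difference between the fractions was not tested. The difference of log2(TPM + 1) in Oct4GFP+ cells minus that in Oct4GFP- cells was 3.65 for *Tpm2*, 3.63 for *Thbs1*, 3.39 for *Myl9*, 3.11 for *Ccn2*, 3.02 for *Tagln*, 2.63 for *Acta2*, 1.78 for *Tpm1* and 1.503 for *Cnn1*. For *Tpm2* the Oct4GFP- cells gave the larger part (-2.10 against 1.55 in Oct4GFP+ cells), and for *Myl9* the Oct4GFP+ cells did (3.02 against -0.37), where the mES-Oct4GFP+ value rested on 3 reads. For *Cnn1* the mES-Oct4GFP+ library had no read and the interval of its ratio in Oct4GFP- cells held 1.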

How the results depend on the processing

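No paired analysis was possible because each group has 1 library and no replicate, and for the same reason no library could be left out. Each of the 8 comparisons was counted in both directions under 6 alternatives, and 94 of these 96 counts were within 1.5 times the reported one. The exceptions were the members at least 2-fold lower in naive against mES-Oct4GFP+ cells, which numbered 2 with a pseudocount of 0.1 and 2 with CPM, against 1 as reported. Calls of *Cnn1* also ended with FPKM in 5C-Oct4GFP+ against mES-Oct4GFP+ cells (7 left of 8) and in naive against 5C-Oct4GFP+ cells (8 left of 9). Of 288 member differences, 276 moved by less than the counting interval, 12 moved further and none that had passed the cut changed sign. Among the 12 was *Myl9* under CPM, from -0.94 to -0.53 in 5C-Oct4GFP+ against 5C-Oct4GFP- cells. In primed against 5C-Oct4GFP+ cells it went from -0.01 to -0.45. The sign was the same in 72 of 72 under FPKM, CPM and the smaller pseudocount, and in 70 of 72 under median-ratio rescaling. There *Tpm2* in 5C-Oct4GFP+ against 5C-Oct4GFP- cells went from -0.19 to 0.02 and *Ccn2* in naive against mES-Oct4GFP+ cells from -0.10 to 0.06. Rescaling by median ratios moved the median of all genes by 0.13 in mES-Oct4GFP+ against mES-Oct4GFP-, 0.19 in 5C-Oct4GFP+ against 5C-Oct4GFP- and 0.13 in naive against mES-Oct4GFP+ cells, and FPKM by 0.11 in the first of these. Depth limits *Cnn1*, *Acta2* and *Myl9* in mES-Oct4GFP+ and naive cells, where they had 8 reads or fewer, and *Tpm2* in naive cells, with 6 reads.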

Other observations

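Epithelial genes shared part of the order of the 9 genes. *Krt8* and *Krt18*, which encode the keratins of simple epithelia, were at 3.82 and 1.36 TPM in Oct4GFP+ and 748 and 454 TPM in Oct4GFP- cells from mES medium. From 5C medium they were at 24.6 and 48.2 TPM in Oct4GFP+ and 221 and 91.8 TPM in Oct4GFP- cells. After conversion they were at 9.54 and 0.48 TPM in naive and at 434 and 361 TPM in primed cells. *Cdh1*, encoding E-cadherin, followed another order, with 295 TPM in Oct4GFP+ and 124 TPM in Oct4GFP- cells from mES medium, 249 and 80.3 TPM in those from 5C medium, 302 TPM in naive cells, 284 TPM in primed cells and 185 TPM in R1 ESCs-primed. Of the 6 epithelial markers, 4 were at least 2-fold lower in mES-Oct4GFP+ than in mES-Oct4GFP- cells and 1 was higher, *Cdh1*. Over all genes, 28.8% were lower and 17.9% higher in that comparison.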
